A study of Mus musculus with 14 samples.

Results

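The levels of miRNAs in the corpus callosum 2 weeks after the end of cuprizone feeding (2wr, 2 arrays) were compared with those of untreated control mice (4 arrays), to find out which miRNAs lay away from the untreated level. These 6 arrays were chosen by their labels and are part of a series of 14, in which the other arrays are of mice after 4 weeks of cuprizone (4wd, 4 arrays) and of mice given 2 further days of regular diet (2dr, 4 arrays). Mice of the 2wr group were fed chow with 0.2 to 0.4% cuprizone (CPZ) for 4 weeks and then regular diet for 2 weeks, and control mice were kept on normal diet throughout. The labels call all mice male, the methods describe young adult mice at the start of feeding, and the strain of the array mice is not given in the sources used here. The study describes its controls as spanning the ages of the treated groups. Corpus callosum was cut out of frozen brain sections, and its total RNA was labeled and hybridized to single-colour Agilent arrays with probes for 566 mouse miRNAs. The titles number the 2wr arrays 1 and 2, and these numbers are used here, although the source names call the same arrays 5 and 6. The methods give more mice per group than the 2 arrays analysed here for 2wr.

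Cuprizone is a copper chelator that kills oligodendrocytes, the cells that make myelin, and it strips the corpus callosum of myelin while microglia and macrophages gather there. When the feeding stops, oligodendrocyte precursor cells mature and the axons are wrapped again. miRNAs are short RNAs that lower the translation and stability of messenger RNAs, which they recognise mainly through the seed, a run of bases near the 5′ end. Several miRNAs are largely made by 1 kind of cell, among them miR-219 and miR-338 in oligodendrocytes, miR-124 in neurons, and miR-142 and miR-223 in blood-derived cells.

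The mature sequences of 11 of the 15 miRNAs whose 2wr arrays lay apart from all control arrays, and of the pair that the study names beside miR-146a, are printed 5′ to 3′ from the RefSeq table of GRCm38.p6, under their current names, with the seed (bases 2 to 8) in capitals. Of 23 names looked up, 18 matched, and miR-709, miR-34c, miR-532-5p, miR-124* and miR-142-3p did not. Array names ending in an asterisk stand for the less abundant arm of a hairpin, so miR-22* is miR-22-5p, miR-411* is miR-411-3p and miR-300* is miR-300-5p.
miR-146a-5p: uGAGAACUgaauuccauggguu
miR-146b-5p: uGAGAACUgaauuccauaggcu
miR-155-5p: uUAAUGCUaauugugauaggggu
miR-342-3p: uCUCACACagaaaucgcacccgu
miR-342-5p: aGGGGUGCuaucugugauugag
miR-22-5p: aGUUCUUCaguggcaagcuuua
miR-873a-5p: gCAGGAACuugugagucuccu
miR-300-5p: uUGAAGAGagguuauccuuugu
miR-379-5p: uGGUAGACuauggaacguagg
miR-411-3p: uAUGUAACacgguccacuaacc
miR-30a-5p: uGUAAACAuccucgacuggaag
miR-193a-3p: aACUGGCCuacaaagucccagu
miR-181b-5p: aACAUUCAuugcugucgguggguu
Only miR-146a and miR-146b share a seed among the 18 matched sequences. They differ at 2 of 22 bases, the first of them base 18, which lies outside the seed. Both arms of the miR-342 hairpin, with unlike seeds, are in the list.

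At 2wr no miRNA passed the test against control, and for most the measured difference from control was within 2-fold. Signals are given as log2 relative to the array's 75th percentile, over the 170 miRNAs detected on all 14 arrays, and differences as 2wr minus control on that scale. A miRNA was tested where all arrays of 1 or more groups detected it. Of the 225 tested, limma called 0 (0%) when asked for a 2-fold difference and a p-value, adjusted by Benjamini-Hochberg, under 0.05. The methods' test also called 0. Its analysis of variance over the 4 groups gave an adjusted p under 0.05 for 0 miRNAs. The 0 calls at 2wr therefore do not by themselves show a return to the untreated level. The unadjusted limma p was under 0.05 for 2 miRNAs (0.889%), miR-155 and miR-146a, and the lowest adjusted p was 0.102. The measured difference was within 2-fold for 219 miRNAs. It was at least 2-fold upward for miR-155, miR-146a and miR-142-3p and at least 2-fold downward for miR-690, miR-700 and miR-338-5p. Both 2wr arrays lay above all 4 control arrays for 7 miRNAs (3.11%) and below all of them for 8 (3.56%), together 15 (6.67%), and the groups overlapped for 210. For a single miRNA, the exact two-sided permutation test of 2 against 4 arrays cannot go below p = 0.133. By chance alone, and if all arrays were interchangeable, a share of about 0.133 of the miRNAs would likewise show groups that do not overlap, in either direction. The observed share of 6.67% was lower. The 2wr arrays lay on different slides, so the arrays may not be interchangeable and 0.133 is only a guide. The 15 are thus not shown to be more than chance would give. Non-overlap is therefore given here as a description, and by itself does not place a miRNA away from the untreated level.

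**Figure D1:**
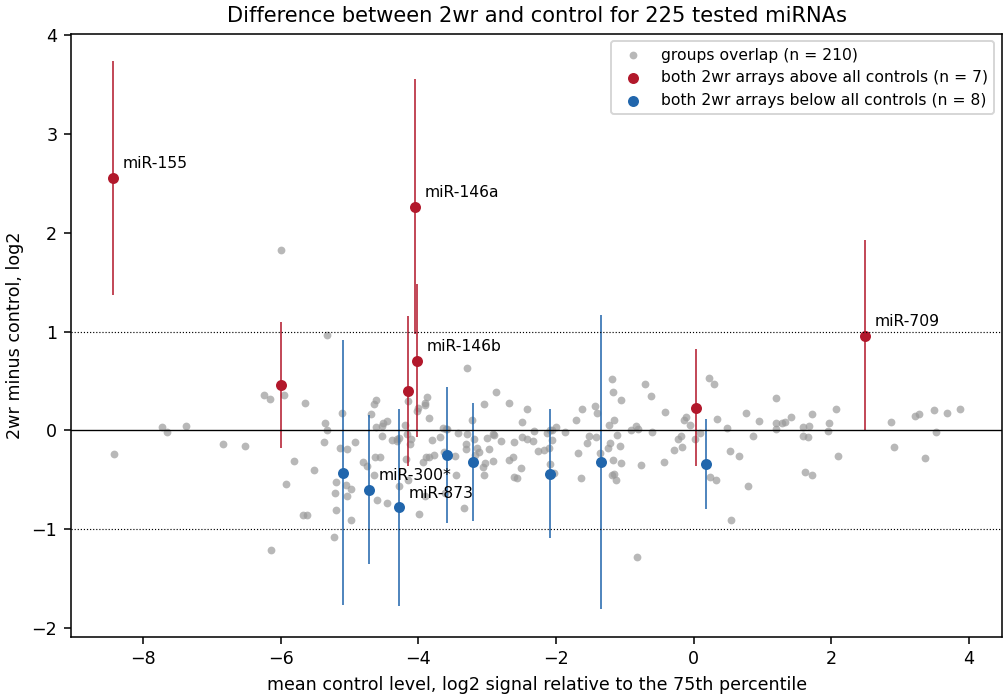
Difference between 2wr and control (y axis, log2) against the mean control signal (x axis, log2 relative to the 75th percentile) for the 225 miRNAs tested. Red and blue points are the 7 miRNAs with both 2wr arrays above and the 8 with both below all controls, with limma's 95% intervals as bars, grey points are the 210 that overlap, and dotted lines mark 2-fold. Only miR-155 and miR-146a have intervals that lie wholly above 0.

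The balance of these counts depends on the scaling. The median difference over the 225 miRNAs was -0.08 (quartiles -0.31 and 0.09), with 87 differences above 0 (38.7%) and 138 below 0 (61.3%). With the percentile taken over all mouse miRNAs the median was 0.09, with normexp background correction 0.10, with the authors' processed values 0.07 and with quantile normalization 0.03. The split of 7 above and 8 below became 16 and 1 with the percentile over all mouse miRNAs, 16 and 2 with the authors' values, 10 and 3 with quantile normalization, and 6 and 1 with normexp. All 7 miRNAs that were above remained so with the percentile over all mouse miRNAs, whereas 1 of the 8 that were below did. The arrays could be set against each other in 11 settings. Those that change only the filter or the fitted groups keep the same array values, and other floors move only dim miRNAs. Over the 11, miR-146a, miR-709 and miR-342-3p were above in 11, miR-146b in 10, and miR-22* and miR-342-5p in 9, and miR-30a was below in 10. Differences are therefore best read against the median of all miRNAs.

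miR-146a and miR-146b, which dampen signalling from Toll-like and interleukin-1 receptors to NF-kB in immune cells, both lay above control on both 2wr arrays. miR-146a, detected on all 6 arrays, stood at -3.69, -4.15, -4.06 and -4.28 in control and at -2.53 and -1.03 in 2wr. The lower 2wr array was thus above the highest control, and the other was higher still. The difference was 2.27 (standard error 0.60, 95% interval 0.97 to 3.56, 4.81-fold), with an adjusted p of 0.259 from limma, and over 26 alternatives the adjusted p ran from 0.0634 to 1.0. With normexp the difference was 1.30, without 2wr replicate 2 it was 1.52 and without 2wr replicate 1 it was 3.01. Both probes of miR-146a gave it, at 2.22 and 2.51, each without overlap. Within slide 1 the 2wr array exceeded the controls of its slide by 1.39, and within slide 2 by 3.14. miR-146b, the product of another gene with the same seed, was at -4.02, -4.09, -4.06 and -3.92 in control and at -3.87 and -2.76 in 2wr. Its separation from control was narrow on replicate 1 and came to 1.23 on replicate 2. The difference was 0.71 (standard error 0.36, 95% interval -0.07 to 1.49, adjusted p = 0.996 from limma). Leaving out 2wr replicate 2 took it to 0.15, and of its 2 probes only 1 lay above control (0.80, against -0.13 for the other).

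miR-155, which activated macrophages and lymphocytes induce, had the largest difference measured. No control array detected it, 3 of them stood at or near the floor for low signals (-8.65, -8.58 and -8.65) and the other at -7.83. The 2wr arrays were at -6.96, where it was not detected, and at -4.78, where it was. It entered the test through the 2dr group, in which all 4 arrays detected it. The fitted difference was 2.56 (standard error 0.55, adjusted p = 0.102 from limma), and it depends on how low signals are treated: with the higher floor it was 0.64, and with normexp 0.47. With each control raised, where lower, to the 5th percentile of the signals detected on its array, the 2wr mean of miR-155 was 1.49-fold higher. The undetected 2wr replicate 1 (-6.96) lay under the raised control mean (-6.45), so this excess rests on replicate 2. The lowest detected signal of an array lay at or under the measured control values and left the fitted difference unchanged. Over 25 alternatives the adjusted p from limma ran from 0.00492 to 1.0, with miR-155 called at 0.0334 with the percentile over all mouse miRNAs, at 0.044 with slide as a block, at 0.0323 with the authors' values and at 0.00492 without 2wr replicate 1. One of its 2 probes lay above control on both 2wr arrays (2.36) and the other overlapped (1.04).

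Among 6 miRNAs of microglia, macrophages and other immune cells, 5 were tested and 0 were called, with 4 differences above 0 and 1 below and a median of 0.36, against -0.08 over all miRNAs. miR-142-3p, found in blood-derived cells of all kinds, was at -4.71, -6.68, -7.36 and -5.22 in control and at -5.18 and -3.15 in 2wr, a difference of 1.83 with a standard error of 0.90. Only replicate 2 was above the control range, and the miRNA was detected on 2 of 4 control arrays and 1 of 2 in 2wr. Like miR-155, it entered the test through treated groups, as all 4 arrays of 4wd and of 2dr detected it. miR-223, of granulocytes and monocytes, differed by 0.36 (standard error 0.67, without 2wr replicate 2 -0.29) and miR-150, of mature lymphocytes, by -0.04 (standard error 0.96), both overlapping control. The summed level of the list, as log2, was 0.02 to 0.51 in control and 0.34 and 0.77 in 2wr. Most of the control sum is miR-342-3p (control mean 0.03), since miR-150 (-2.91) and the still dimmer other members add little. Without 2wr replicate 2 the list's median was 0.19, so much of its distance from the other miRNAs rests on that array. With only miRNAs detected on all arrays, which leaves 2 of the list, its median was 0.10, beside -0.04 over all such miRNAs. In tissue samples such as these, more cells of a type and more RNA per cell cannot be told apart.

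**Figure D2:**
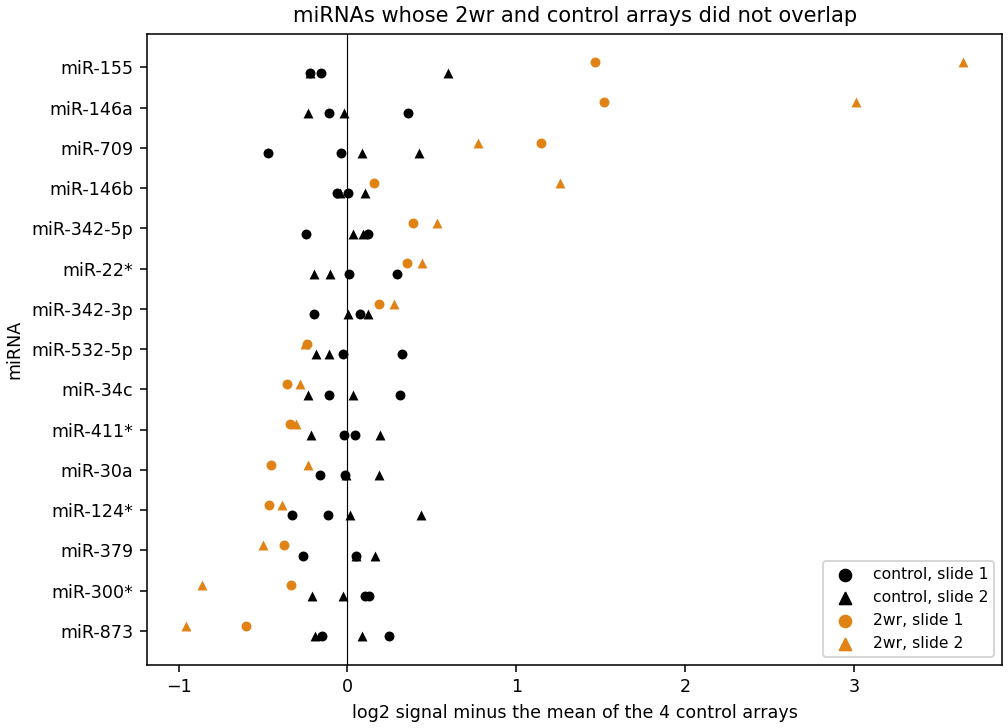
Signal of each control (black) and 2wr (orange) array minus the mean of the 4 control arrays (x axis, log2) for the 15 miRNAs whose groups did not overlap (y axis), with circles for slide 1 and triangles for slide 2. The 2wr arrays of miR-155 and miR-146a stand over 1 above the control mean, while for miR-342-3p, miR-146b, miR-22* and most miRNAs below control the gap to the nearest control array is small.

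Of the other miRNAs above control, miR-709 had the largest difference. It was at 2.45, 2.02, 2.91 and 2.57 in control and at 3.64 and 3.26 in 2wr, so that both 2wr arrays lay above the highest control. The difference was 0.96 (standard error 0.45, 95% interval -0.01 to 1.92, 1.94-fold, adjusted p = 0.996 from limma), and both of its probes lay above control on both arrays, at 1.04 and 0.95. Within slide 1 it was 1.40 and within slide 2 0.52. The 2 arms of the miR-342 hairpin, which lies in an intron of Evl and is expressed in immune cells, both lay above control as well. miR-342-5p, a dim signal, was at -6.23, -5.87, -5.96 and -5.90 in control and -5.60 and -5.46 in 2wr (difference 0.46, standard error 0.29). miR-342-3p was at -0.17, 0.11, 0.16 and 0.04 in control and 0.22 and 0.31 in 2wr (difference 0.23, standard error 0.27). The arms thus lay on the same side, by under 2-fold. Their differences were almost the same on each slide, 0.45 and 0.47 for the 5p arm and 0.25 and 0.22 for the 3p arm. No single probe of miR-342-5p lay above all controls (0.52 and 0.34, the others at the floor). For miR-342-3p, 1 probe did (0.26) and the other overlapped (0.18). miR-22*, the minor arm of miR-22, was at -3.86, -4.15, -4.36 and -4.26 in control and -3.81 and -3.71 in 2wr (difference 0.40, standard error 0.35). There replicate 1 barely cleared the highest control, and 1 probe lay above control (0.44) while the other overlapped (0.31).

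Below control, the largest difference without overlap was that of miR-873. It was at -4.03, -4.42, -4.19 and -4.47 in control and at -4.88 and -5.23 in 2wr, clear of control on both arrays. The difference was -0.78 (standard error 0.46, 95% interval -1.78 to 0.22, 0.582 of control, adjusted p = 0.996 from limma), it was close to the same on both slides (-0.65 and -0.91), and both probes lay below control (-1.05 and -0.66), although with normexp it turned to 0.05. Beside the control mean of -4.28 ± 0.21 (SD, n = 4) stood a 2wr mean of -5.06 ± 0.25 (SD, n = 2), a 2dr mean of -5.07 ± 0.83 (SD, n = 4) and a 4wd mean of -4.31 ± 0.54 (SD, n = 4), the comparisons with control sharing the same control arrays. miR-34c, at -1.71 and -1.63 in 2wr against -1.59 to -1.04 in control, miR-532-5p, at -3.82 and -3.83 against -3.76 to -3.26, and miR-124*, at -5.56 and -5.48 against -5.43 to -4.66 and detected on 1 of the 2 arrays, fell only just outside the control range. Their differences were -0.32, -0.25 and -0.43, each under its own standard error (0.69, 0.32 and 0.62), and that of miR-532-5p turned to 0.12 with normexp. Neither miR-34c nor miR-532-5p had a single probe below all controls.

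Of the 8 miRNAs below control (3.56% of those tested), 3 come from the Dlk1-Dio3 region, an imprinted stretch whose maternal copy encodes one of the largest miRNA clusters of the mouse, expressed mainly in brain. Listed names of the region made up 37 of the 225 miRNAs tested, and 2 of the 3 are among them. The minor arm of the listed miR-136, miR-136*, is also unlisted, and it overlapped control (-0.22). miR-379 was at -2.35, -2.03, -1.92 and -2.04 in control and -2.46 and -2.59 in 2wr, a difference of -0.44 (standard error 0.30). miR-411* was at -3.22, -3.15, -3.41 and -3.01 in control and -3.54 and -3.50 in 2wr (-0.32, standard error 0.27). miR-300*, whose hairpin is in the region although this arm was not among the listed names, was at -4.61, -4.59, -4.92 and -4.74 in control and -5.05 and -5.58 in 2wr (-0.60, standard error 0.35). With normexp the last 2 turned, to 0.01 for miR-411* and 0.13 for miR-300*. No single probe of miR-411* lay below all controls. The miR-379 probe at -0.42 and the miR-300* probes at -0.52 and -0.62 did, and their other probes overlapped. Of the 52 names listed for the region, 37 were tested, of which 2 lay below all controls, with 6 differences above 0 and 31 below, a median of -0.12 against -0.08 over all miRNAs, and 21 intervals within 2-fold. This median lay near that of all miRNAs, its sign turned with the percentile taken over all mouse miRNAs (0.06), the authors' values (0.02) and normexp (0.08), within slide 1 it was 0.04 and within slide 2 -0.29, and without 2wr replicate 2 it was 0.10. miR-494, with the lowest difference of the region (-0.90), had a standard error of 1.22.

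In the miR-30 family, abundant in most tissues, all 5 members lay below 0. They were detected on all arrays, with differences from -0.47 to -0.32 and a median of -0.35, and the median stayed below 0 under each scaling and background alternative. miR-30a was the one that did not overlap, at 0.02, 0.16, 0.37 and 0.17 in control and -0.28 and -0.05 in 2wr. Its difference was -0.34 (standard error 0.21, 95% interval -0.80 to 0.11), with -0.37 within slide 1 and -0.32 within slide 2, and its interval lay within 2-fold. Of the miR-30a probes, that at -0.28 lay below all controls and those at -0.66 and -0.33 overlapped. For miR-30b, miR-30c, miR-30d and miR-30e the intervals were wider than 2-fold, and without 2wr replicate 1 the median of the family was 0.06.

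**Figure D3:**
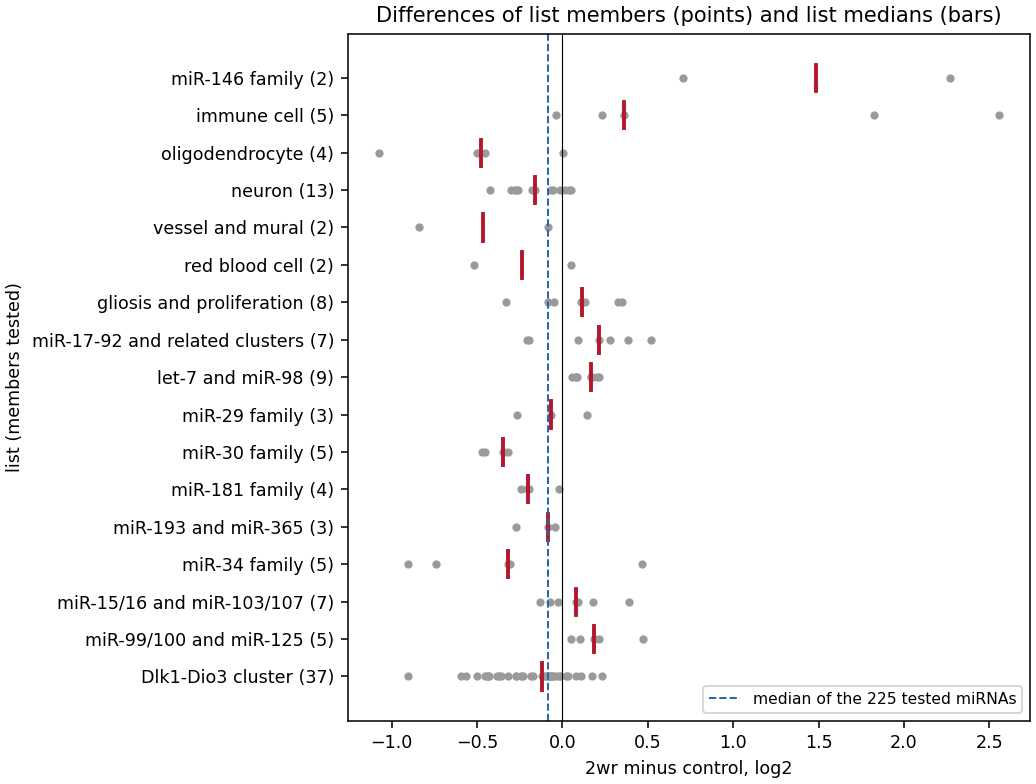
Difference between 2wr and control (x axis, log2) of the tested members (grey points) of each list (y axis, number tested in parentheses), with the list's median as a red bar and the median of all 225 miRNAs (-0.08) as a dashed line. The miR-146 family (1.49) and the immune cell list (0.36) lie to the right and the oligodendrocyte (-0.48) and vessel (-0.46, 2 miRNAs) lists to the left. The signs of the miR-181, miR-34, red blood cell and vessel medians turn with normexp, those of the neuron and miR-29 lists with other scalings, and those of the Dlk1-Dio3 and miR-193 lists with both.

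The miRNAs that the study names beside miR-146a were near control at 2wr. miR-193 (miR-193a) was at -3.00, -4.37, -4.22 and -3.77 in control and at -4.24 and -3.98 in 2wr, inside the control range on both arrays. The difference was -0.27, but its 95% interval of -2.46 to 1.92 reached 2-fold in both directions. miR-181b was at -0.50, -0.88, -0.34 and -0.69 in control and at -0.93 and -0.31 in 2wr, just beyond the control range on either side. Its difference of -0.02 had an interval of -0.76 to 0.73, which leaves less than 2-fold. The other members of the miR-181 family differed by -0.21 (miR-181a), -0.20 (miR-181c) and -0.24 (miR-181d), a family median of -0.20 that turned to 0.02 with normexp and to 0.26 without 2wr replicate 1, and was 0.0042 without control replicate 3. miR-193b and miR-365, which share a cluster, differed by -0.09 and -0.04, and the median with miR-193, -0.09, was above 0 with normexp (0.02), the percentile over all mouse miRNAs (0.09) and the authors' values (0.06), and also without 2wr replicate 2 (0.21), control replicate 1 (0.01) and control replicate 2 (0.03).

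Return to the untreated level can be bounded only where the interval of a difference is narrow. The unadjusted 95% interval lay within 2-fold for 99 of the 225 miRNAs (44%) and was wider for 126, of which 50 reached 2-fold in both directions. The median standard error was 0.385 and the median half-width of the interval 1.78-fold. Brighter signals were bounded more often: the median control level was -1.67 for the 99 and -3.92 for the others, and 98 of the 99 were detected on all 6 arrays, as 193 of the 225 were. Among the 30 brightest in control, the narrowest intervals around a difference near 0 were those of miR-125b-5p (0.22, -0.25 to 0.68), let-7e (0.08, -0.50 to 0.65), miR-103 (0.09, -0.41 to 0.59), miR-129-3p (0.04, -0.43 to 0.51) and miR-23b (-0.05, -0.66 to 0.55). miR-125b-5p, for example, was at 3.80, 3.71, 4.10 and 3.86 in control and 4.01 and 4.16 in 2wr. Its brighter probe lay above all controls on both 2wr arrays (0.22) and its other probe overlapped (0.10). For miR-23b the dimmer probe lay below all controls (-0.16) and the other overlapped (-0.008). The probes of let-7e, miR-103 and miR-129-3p overlapped.

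Of the gene families, let-7 was the most closely bounded. Its 9 members, which promote differentiation, differed by 0.05 to 0.21 (median 0.16), all 9 intervals lay within 2-fold and all 9 members overlapped control. Without 2wr replicate 1 the median was -0.05. The 5 tested members of the miR-99, miR-100 and miR-125 families differed by 0.05 to 0.47 (median 0.18), with 4 intervals within 2-fold. The group of miR-15, miR-16, miR-103, miR-107 and their relatives had a median of 0.08 (without control replicate 3 -0.01) with 5 of 7 intervals within 2-fold, and the miR-29 family, which targets collagens, a median of -0.07 with 2 of 3, a sign that turned with the percentile taken over all mouse miRNAs (0.11), the authors' values (0.08), quantile normalization (0.04) and without control replicate 1 (0.07) or 2wr replicate 2 (0.08). Of 8 miRNAs tied to reactive glia and proliferation, 5 were above 0 and 3 below, with a median of 0.11 and 6 intervals within 2-fold. Among them miR-21, which rises in reactive astrocytes, was at 1.23, 0.15, -0.50 and 0.50 in control and 0.02 and 0.90 in 2wr (0.12, standard error 0.44), within the control range. In the cluster of miR-17 and its paralogous clusters, which drive proliferation, 7 of 12 were tested, with 5 differences above 0, a median of 0.21 and 3 intervals within 2-fold. This median was -0.08 without 2wr replicate 2 and -0.17 within slide 1. The 5 members of the miR-34 family, which p53 induces, had 1 difference above 0 and 4 below, with a median of -0.32 that turned to 0.17 with normexp and to 0.15 without 2wr replicate 1, and no interval within 2-fold. None of the 5 members of the miR-200 family, of epithelia, met the filter.

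The oligodendrocyte miRNAs, the ones closest to myelin itself, were detected but varied among the control mice. miR-219, which drives oligodendrocyte maturation, was at 1.80, 0.35, -1.32 and 0.46 in control and at -0.01 and -0.34 in 2wr. miR-338-3p was at 2.89, 1.56, 0.61 and 1.81 in control and at 1.34 and 1.18 in 2wr. For both, the 2wr arrays lay close together and inside a wide control range. The differences were -0.50 (95% interval -2.01 to 1.01) and -0.45 (-1.74 to 0.83), which bound neither within 2-fold. miR-138, which acts early in oligodendrocyte differentiation, differed by 0.0040 (standard error 0.51). miR-338-5p, the minor product of its hairpin, was at -8.04 and undetected on 2wr replicate 1 and at -4.56 on replicate 2, against -5.82 to -4.67 in control (-1.08, standard error 1.05). The summed level of the 4 was 1.49 to 3.49 in control and 1.99 and 1.91 in 2wr, and the list's median of -0.48 was -0.98 within slide 1 and 0.03 within slide 2.

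In the other cell type lists no tested miRNA had both 2wr arrays on one side of all controls. All 13 neuron miRNAs were tested, 3 differences were above 0 and 10 below, with a median of -0.16 that was 0.02 with the percentile over all mouse miRNAs and 0.07 without 2wr replicate 2. Their summed level was 5.12 to 5.26 in control and 5.19 and 5.02 in 2wr. miR-124, the main neuronal miRNA, was at 3.20, 3.37, 3.80 and 3.07 in control and 3.35 and 2.81 in 2wr (-0.28, standard error 0.35). Of 8 miRNAs of vessels and mural cells 2 were tested: miR-126-3p, of endothelium, differed by -0.09 (standard error 0.30), and miR-143, of smooth muscle, by -0.84 (standard error 1.01), with 2wr replicate 1 at -6.23 and replicate 2 at -3.43. Their median of -0.46 was 0.03 with normexp and 0.24 without 2wr replicate 1. Of 3 red blood cell miRNAs 2 were tested, and miR-451, the main one, differed by 0.05 (standard error 0.39). The summed level of the red blood cell miRNAs was -1.12 to -0.02 in control and -0.65 and -0.84 in 2wr, so the 2wr arrays lay within the control range.

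Detection calls separated the 2wr arrays from each other more than from control. Control arrays detected 236, 246, 268 and 287 mouse miRNAs, and 2wr replicate 1 detected 198 and replicate 2 283. Summed signals ran from 85417 to 173924 in control and were 72411 and 129989 in 2wr, so replicate 1 had the fewest detected miRNAs and the lowest summed signal of the 6 arrays. All 4 control arrays detected 217 miRNAs and both 2wr arrays 197. Of the 217, both 2wr arrays detected 193 and 1 of them detected 23, and in all 23 the missing array was replicate 1. One miRNA, miR-330, was detected on all controls and no 2wr array, yet its control signal stood at the floor on 3 of 4 arrays, so no fold is given. Both 2wr arrays detected 4 miRNAs that 1 control array lacked, miR-154*, miR-362-3p, miR-380-3p and miR-431*, named after their values were seen. No miRNA was detected on both 2wr arrays and no control array, while 5 were detected on 1 of the 2wr arrays and on no control array, miR-155, miR-142-5p, miR-18a, miR-469 and miR-669a, the last 3 also named after their values were seen. For 251 of the 566 miRNAs none of the 6 arrays gave a detection call.

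The 2wr arrays lay on different slides, each with 2 control arrays, which allowed each to be set against controls scanned with it. Of the 225 miRNAs, 33 were higher on both slides, 74 were lower on both, and the others differed in sign between the slides. Across miRNAs, which are not independent replicates, Pearson's r between the slides was 0.185 and Spearman's rho 0.00223, so the ranks showed no relation. On both slides 2wr was at least 2-fold higher for miR-146a and miR-155, and at least 2-fold lower for miR-690. On slide 1 neither the 2wr array nor the controls detected miR-155, so its difference there rests on undetected signals. miR-690, named after its values were seen, was at -2.52, -0.37, 0.81 and -1.18 in control and -2.81 and -1.39 in 2wr, a difference of -1.28 (standard error 0.98), so the control arrays were spread widely and the groups overlapped. Within slide 1 alone, 5 miRNAs were at least 2-fold higher and 16 lower, and within slide 2 alone 5 and 6. The median absolute difference between the 2wr arrays was 0.500, beside 0.297 to 0.780 between pairs of control arrays, so the 2wr arrays differed from each other about as much as control arrays did.

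**Figure D4:**
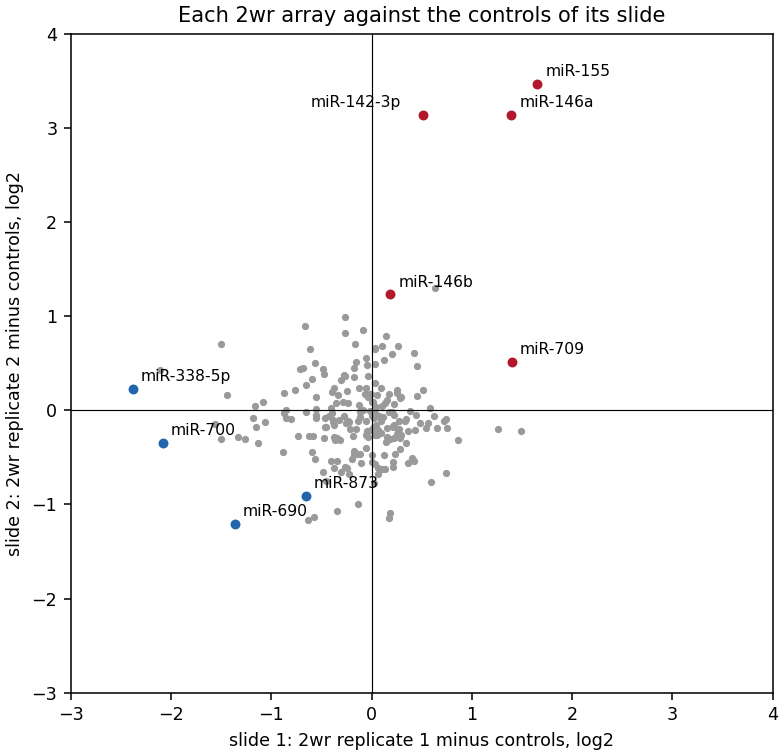
Difference of 2wr replicate 1 from the 2 controls on slide 1 (x axis, log2) against that of 2wr replicate 2 from the 2 controls on slide 2 (y axis, log2), with 1 point per tested miRNA. miR-146a (1.39 and 3.14) is high on both slides. miR-155 (1.65 and 3.46) is too, but on slide 1 neither the 2wr array nor the controls detected it. miR-142-3p is high on slide 2 (3.14) and less so on slide 1 (0.52), and miR-338-5p is low on slide 1 only (-2.38 and 0.23).

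For the miRNAs above, the earlier groups of the series, whose comparisons share the same control arrays, are set beside 2wr. The 2wr mean of miR-146a was -1.78 ± 1.06 (SD, n = 2), with means of -1.37 ± 0.98 (SD, n = 4) for 2dr, -2.71 ± 0.68 (SD, n = 4) for 4wd and -4.05 ± 0.25 (SD, n = 4) for control. For miR-146b the 2wr mean was -3.32 ± 0.78 (SD, n = 2), the 2dr mean -3.52 ± 0.33 (SD, n = 4) and the 4wd mean -3.70 ± 0.50 (SD, n = 4). For miR-709 the means were 3.45 ± 0.27, 3.11 ± 0.79 and 3.38 ± 0.43 in the same order. In these 3 the 2wr mean was no nearer to control than the 4wd mean, and the differences between these groups were not tested here. For miR-193 the means were -6.17 at 4wd, -5.78 at 2dr and -4.11 at 2wr, against -3.84 in control. For miR-181b they were -1.37, -1.24 and -0.62 against -0.60, so the 2wr mean of both was the nearest to control. Not every 4wd and 2dr array detected miR-193, so its earlier means rest partly on undetected signals. The standard error of its difference between 2wr and control was 1.01, and changes between the treated groups were not tested. miR-338-3p stood at 0.55, 0.98 and 1.26 against 1.72 in control.

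**Figure D5:**
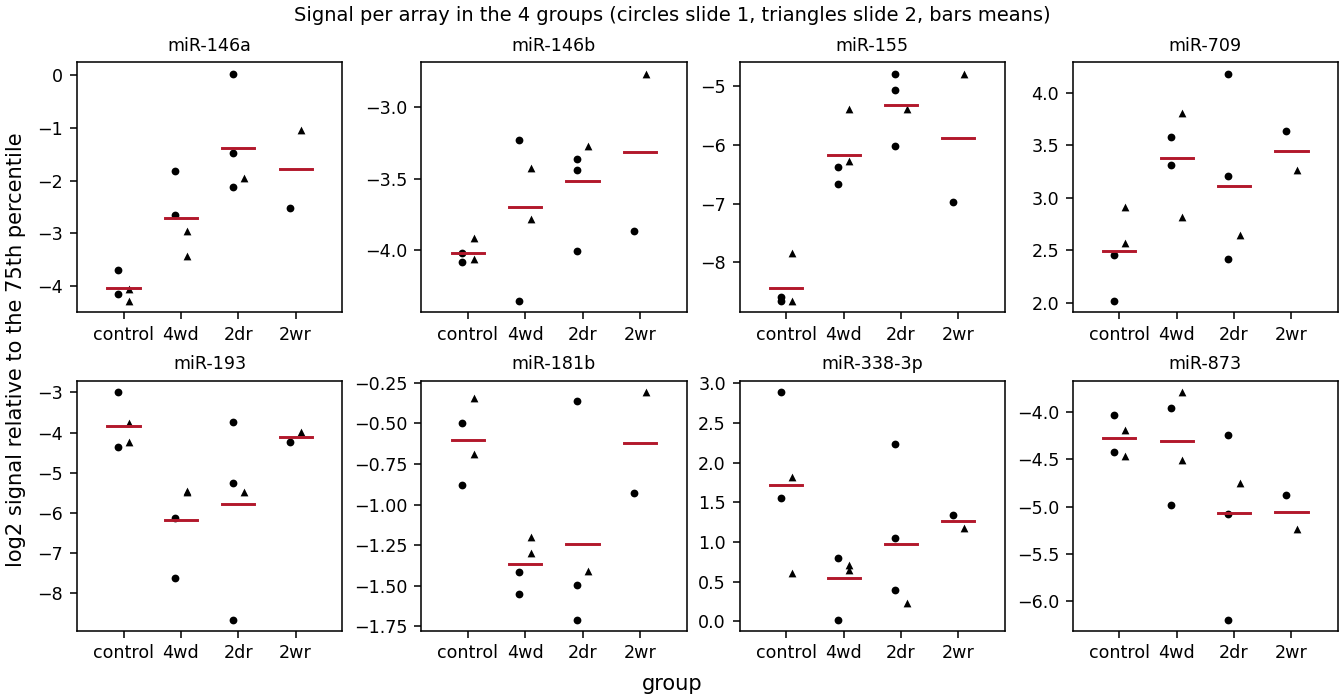
Signal of 8 miRNAs on each of the 14 arrays (y axis, log2 relative to the 75th percentile) in control, 4wd, 2dr and 2wr (x axis), with circles for slide 1, triangles for slide 2 and bars for group means. miR-146a, miR-155 and miR-709 stand above control in 2wr, whereas miR-193, miR-181b and miR-338-3p overlap control there.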

How the data were processed

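The deposited scanner files give linear signal intensity. Per the file headers, the authors' image software (Feature Extraction 10.5.1.1, a later version in the methods) subtracted the background, summed each miRNA's probes to a total signal and called it detected or not. The authors' deposited series table holds log2 processed values of the same arrays and was used only as an alternative.

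Each array's total signals were scaled to its 75th percentile, taken over the 170 miRNAs that all 14 arrays detected. Low values were raised to a floor (0.00249, or -8.65 as log2), which is the median, across arrays, of the smallest scaled signal with a detection call, and log2 was taken. Control spots and 10 viral miRNAs were left out. Mouse miRNAs that all arrays of some group detected (225 of 566) were fitted over the 14 arrays and 4 groups with limma 3.58.1 in R 4.3.3 (lmFit, contrasts.fit, eBayes). Exact permutation tests used scipy 1.17.1. The fit was tested on simulated data. Nothing in the labels ties the arrays to separate mice, so p-values measure the spread between arrays. The number of arrays limits the precision.

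Named miRNAs are the 10 largest differences in each direction among those detected on all 6 arrays whose groups do not overlap, those with an unadjusted limma p under 0.05, those detected on all arrays of 1 group and none of the other, those the study names with their families, the list members, and the 5 of the 30 brightest with the narrowest interval around a difference near 0. Members and lists were chosen with earlier results of these data known. miR-124* does not meet the rule and was named as one of the 15 that do not overlap. miRNA names follow the array's design, whose build differs from GRCm38.p6, so no coordinates are given.

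Alternatives were the mean of the spots, normexp (offset 50, on the median signal), the percentile over all mouse miRNAs, quantile normalization, testing all miRNAs or only those that every array detected, a floor 4 times lower, a higher floor (5th percentile of detected signals, -6.05 as log2), slide as a block, each slide alone, the replicate block, only control and 2wr in the fit, the authors' values, the methods' test, no minimum fold, and leaving out 1 array at a time.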

Additional observations from a re-analysis of the deposited data

Results flagged for a closer look

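In the control group of 4, 1 array stood far from the other 3 for 2 miRNAs by Dixon's criterion. For miR-155 the gap was 0.919 of the range, with control replicate 4 at -7.83 and the others at or near the floor. For miR-330 it was 1.0 of the range, with control replicate 4 at -7.70 and the others at the floor. Such a gap was looked for in 39 miRNAs, and chance flags about 1 in 20. That rate does not hold for values raised to the floor. With the other 3 controls at the floor, the ratio of miR-330 could only be 1.0. The miR-155 controls at the floor likewise enlarge its ratio, so neither flag can be read as a stray array. Control replicate 4 had the largest number of detected miRNAs (287) and the highest summed signal (173924) of the 4 controls, and the part of this in both values was not tested.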

How the results depend on the processing

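Of 39 miRNAs followed through 14 alternatives and 14 fits without 1 array, 14 kept their direction in all. Among them were miR-146a, miR-155, miR-146b, miR-709, both arms of miR-342, miR-22*, miR-30a, miR-379 and miR-34c. Leaving out a 4wd or 2dr array, or changing only the filter or the fitted groups, cannot move the difference. The number called was 1, miR-155, with the percentile over all mouse miRNAs, slide as a block, the authors' values and without 2wr replicate 1, and 0 to 1 over the fits without 1 array. The number above control was 16 with the percentile over all mouse miRNAs, 16 with the authors' values, 62 within slide 1 and 47 within slide 2, where 1 array is set against 2 controls, and 7 to 42 without 1 array. The number below was 1 with the percentile over all mouse miRNAs, 1 with normexp, 3 with quantile normalization, 5 with only miRNAs detected on all arrays, where fewer are tested, 2 with the authors' values, 79 within slide 1 and 73 within slide 2, and 8 to 47 without 1 array. Single arrays that moved these counts by over 1.5 times were 2wr replicate 1 (26 above, 47 below), 2wr replicate 2 (42 and 47), control replicate 1 (16 and 14) and control replicate 3 (12 and 27). Slide as a block and the replicate block give no such counts. Intervals within 2-fold numbered 321 with no filter, where more miRNAs are tested, 34 without 2wr replicate 1, 33 without 2wr replicate 2 and 33 to 105 over all fits without 1 array. Where 1 array of 2wr is left, its spread is taken to be that of the other groups.

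Signs turned mostly near 0, and the cause was not tested. With normexp they turned to -0.046 for miR-129-3p, 0.24 for miR-150, 0.025 for miR-181b, 0.020 for miR-181c, 0.16 for miR-181d, 0.099 for miR-193, 0.023 for miR-193b, 0.13 for miR-300*, 0.27 for miR-330, 0.27 for miR-338-5p, 0.011 for miR-411*, 0.12 for miR-532-5p and 0.048 for miR-873. The percentile over all mouse miRNAs turned them to 0.089 for miR-126-3p, 0.14 for miR-150, 0.16 for miR-181b, 0.089 for miR-193b, 0.12 for miR-23b and 0.13 for miR-365, and the authors' values to 0.057 for miR-126-3p, 0.10 for miR-150, 0.12 for miR-181b, 0.057 for miR-193b, 0.091 for miR-23b, 0.087 for miR-330 and 0.099 for miR-365. With quantile normalization they turned to 0.11 for miR-150, 0.030 for miR-193b and 0.087 for miR-23b, and with the mean of the spots to -0.0051 for miR-138.

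Without 1 array in turn, the difference ranged from -0.11 to 0.27 for let-7e, -0.12 to 0.30 for miR-103, -0.13 to 0.21 for miR-129-3p, -0.65 to 0.24 for miR-181a, -0.33 to 0.29 for miR-181b, -0.51 to 0.12 for miR-181c, -0.88 to 0.39 for miR-181d, -0.45 to 0.010 for miR-193, -0.84 to 0.67 for miR-193b, -0.19 to 0.089 for miR-23b, -0.29 to 0.21 for miR-365, -1.06 to 0.98 for miR-150, -0.29 to 1.01 for miR-223, -2.81 to 0.66 for miR-338-5p, -0.30 to 0.31 for miR-138, -0.089 to 0.31 for miR-451, -0.23 to 0.074 for miR-126-3p and -0.32 to 0.55 for miR-21.

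Control and 2wr arrays share the replicate numbers 1 and 2, and the deviations of the same-numbered arrays correlated at 0.474 and -0.639. With 2 arrays in 2wr, the deviations of one mirror those of the other, so these values cannot decide whether the numbers pair arrays. With the replicate block 0 miRNAs were called and 99 intervals lay within 2-fold, and the sign turned to -0.090 for let-7e, -0.021 for miR-103, 0.93 for miR-150, 0.19 for miR-181a, 0.17 for miR-181b, 0.089 for miR-181d, 0.30 for miR-193, -0.18 for miR-21 and -0.15 for miR-451. It changed no other call.

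Dim miRNAs are limited by their signal over background, and values at the floor cannot be ordered.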
